A study of Mus musculus with 6 samples.

Results

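The genes described here carry pyruvate into the citric acid cycle and turn the cycle. They are 32 of the 54532 genes in the deposited table, chosen by name: the mitochondrial pyruvate carrier, the pyruvate dehydrogenase complex with its kinases and phosphatases, enzymes of the cycle, their cytosolic counterparts, pyruvate carboxylase and the malic enzymes. The series sequenced RNA of mouse muscle, 1 library from each of 3 control mice and 3 Igf2 cKO mice, all on a C57BL/6 background. In both groups loxP sites flanked exon 2 on both Igf2 alleles (Igf2f/f), and Igf2 encodes insulin-like growth factor 2. The Igf2 cKO mice also carried Mck-Cre, which is expressed from the muscle creatine kinase promoter in striated muscle fibres, whereas the controls were Cre-negative littermates. Cells of muscle other than fibres were therefore not targeted. Which muscle was taken, and how old the mice were, is not in the labels used here. The title of the series ties loss of Igf2 to sarcopenia.

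Pyruvate made by glycolysis enters mitochondria through a carrier of 2 proteins, and pyruvate dehydrogenase then converts it irreversibly to acetyl-CoA. Pyruvate dehydrogenase kinases phosphorylate the complex and switch it off, and pyruvate dehydrogenase phosphatases remove the phosphate and switch it on. In skeletal muscle this switch sets the balance between glucose and fat as fuels: the kinase gene Pdk4 is induced in fasting and by fatty acids through PPAR and FOXO transcription factors, and the calcium-stimulated phosphatase encoded by Pdp1 acts during contraction.

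Libraries held between 16184371 and 17905203 counts, and all 32 genes passed the filter on low counts. The libraries were muscle by their markers, with Acta1, skeletal muscle actin, at 33040 to 40710 CPM, a scale that divides each count by the size of its library. Igf2 counts were 60, 43 and 39 in the controls, in the order of their numbers, and 33, 37 and 42 in the Igf2 cKO libraries, which gave -0.31 ± 0.25 on the log2 scale (SE, edgeR adjusted p = 0.751). These counts cover the whole gene and do not check the deletion. In fibre type the Igf2 cKO libraries lay on both sides of the controls. The 9 slow and oxidative fibre markers, all detected, summed to 2668 to 2996 CPM in the controls. Their sum was 5515 CPM in Igf2 cKO replicate 2, and 1464 and 1746 CPM in Igf2 cKO replicates 1 and 3. Igf2 cKO replicate 3 had the highest sum of the 10 adipocyte markers, at 1757 CPM, against 553.4 to 954.9 CPM in the other libraries. In bulk tissue, fewer cells of a type and less RNA per cell cannot be told apart.

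The log2 fold changes farthest from 0 were those of Pdk4, Pdp2 and Pdp1, genes of the switch, while the complex and the cycle had nearly equal means. Both phosphatase genes lay lower in all 3 Igf2 cKO libraries than in any control. Pdk4 was about as high as in controls in Igf2 cKO replicate 2 and far lower in replicates 1 and 3. By the quasi-likelihood test of edgeR with Benjamini-Hochberg adjustment over 14867 genes, 0 of the 32 were called at an adjusted p under 0.05, a threshold that 0.249% of all genes passed (0.182% higher in Igf2 cKO muscle and 0.0673% lower). DESeq2 called 2, Pdp1 and Pdp2, where it called 1.48% of all genes, and limma-voom called 0 (0.229% of all genes). With no filter on low counts edgeR called the same 2 and 1.07% of all genes. An unadjusted p under 0.05 was reached by the same 2 genes in edgeR, both lower and 6.25% of the 32, against 9.93% of all genes (5.11% higher and 4.82% lower). The median log2 fold change of the 32 genes was -0.004, and that of all genes was 0.004, with 15 of the 32 above 0 (50.8% of all genes) and 17 below (49.2% of all genes). With 1 library left out the median of the 32 ran from -0.181 (without Igf2 cKO replicate 2) to 0.084 (without Igf2 cKO replicate 1), and it was -0.1 without control replicate 1.

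The upstream sequences of Pdk4 and Pdp2 are shown because these are genes of the switch that stood apart in the counts. They run from 250 to 41 bases before the RefSeq start site (GRCm38.p6) and are written 5′ to 3′ on the gene's strand. Pdk4 is chr6:5496319-5496528 on the minus strand, and Pdp2 is chr8:104591222-104591431 on the plus strand. Capitals mark CCAAT, the box bound by NF-Y, or ATTGG, its reverse complement, and CACGTG, an E-box.
Pdk4: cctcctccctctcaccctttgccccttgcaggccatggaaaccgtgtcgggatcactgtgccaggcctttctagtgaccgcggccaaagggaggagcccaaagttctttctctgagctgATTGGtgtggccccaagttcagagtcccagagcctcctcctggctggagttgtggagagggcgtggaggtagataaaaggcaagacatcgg
Pdp2: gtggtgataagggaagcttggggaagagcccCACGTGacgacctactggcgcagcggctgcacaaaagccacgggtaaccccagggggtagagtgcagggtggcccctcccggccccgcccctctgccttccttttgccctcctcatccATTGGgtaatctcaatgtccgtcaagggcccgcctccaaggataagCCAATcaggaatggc

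Short letter strings, 6 in number, were searched on both strands in the 250 bases before each start. Of the 32 genes, 29 had a RefSeq promoter, without Pdp1, Idh3a and Me2, and these 29 had 40 start sites, so that a gene could hold a string at any of its starts. CCAAT, which was added after the sequences had been seen, was found in 18 of the 29 genes, at 21 of their 40 starts (52.5%), and in 33.8% of all 32851 promoters in the table. CACGTG was found in 4 of the 29 (Ogdh, Pcx, Pdk2 and Pdp2), at 6 of 40 starts (15.0%), and in 6.02% of all promoters. AGGTCA, the core bound by many nuclear receptors, was found in Fh1, Mpc1 and Sucla2, at 3 of 40 starts (7.5%), and in 14.0% of all. AGAACA, the core of glucocorticoid receptor sites, was found in Aco1, Idh1, Pdk1 and Suclg1, at 4 of 40 starts, and in 16.1% of all. GTAAACA, a FOXO core, and TCAAGGTCA, which contains AGGTCA and is bound by estrogen-related receptors, were found in 0 of the 29 and in 3.17% and 0.387% of all promoters. The guanine and cytosine content of the printed windows was 58.6% for Pdk4 and 61.9% for Pdp2, and the median of all promoters over the same window was 51.9%.

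Pdp1 (ENSMUSG00000049225, chromosome 4, 11958184 to 11966452, minus strand) encodes the catalytic subunit of the main muscle phosphatase of the complex. It stood at 125, 123 and 141 CPM in control replicates 1, 2 and 3, against 88.2, 73.8 and 78.4 CPM in Igf2 cKO replicates 1, 2 and 3. All 3 Igf2 cKO libraries were below the lowest control. The means were 129.9 ± 10.04 and 80.2 ± 7.37 CPM (SD, n = 3 each), and Pdp1 differed by -0.70 ± 0.11 on the log2 scale (SE, 95% interval -0.94 to -0.45, edgeR adjusted p = 0.0529). The adjusted p was 1.19e-05 with DESeq2, was 0.00172 when edgeR ran without the filter, and lay from 0.0613 to 0.214 when single libraries were dropped.

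Pdp2 (ENSMUSG00000048371, chromosome 8, 104591451 to 104599026, plus strand) encodes the second catalytic subunit, which insulin is known to regulate in other tissues. Its CPM was 13.5, 17.7 and 21.5 in control replicates 1, 2 and 3, against 7.08, 11.7 and 9.05 in Igf2 cKO replicates 1, 2 and 3. Again no Igf2 cKO library reached the lowest control. On the log2 scale Pdp2 differed by -0.92 ± 0.22 (SE, 95% interval -1.43 to -0.41, edgeR adjusted p = 0.201), with 0.0153 by DESeq2 and 0.00373 when edgeR ran without the filter. The 2 phosphatase genes were the only members whose groups did not overlap, or 6.25% of the 32, against 15.5% of all genes tested and 7.67% with the Igf2 cKO group lower. Summed markers of red blood cells (5 of 5 detected) were also lower in each Igf2 cKO library, at 312.9 to 358 CPM against 449.4 to 617.4 CPM in controls, as were those of muscle fibres (7 of 7), at 86920 to 104900 CPM against 108800 to 130400 CPM. Of these 7 fibre genes, 2 (Myh4 and Ckm) were lower without overlap, and 3 (Myh1, Mb and Des) had log2 fold changes above 0. Their part in the phosphatase values was not tested. In the deposited FPKM, which also scales by gene length, Pdp1 was 8.30 to 11.7 times Pdp2 in controls and 7.97 to 15.7 times in Igf2 cKO libraries, so the level of phosphatase RNA was mostly that of Pdp1. For Pdpr, the regulatory subunit of the phosphatase and not a member, the log2 value was -0.19 (edgeR adjusted p = 0.721).

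In the authors' deposited table, which compares each Igf2 cKO library with the control library of the same number, Pdp1 had log2 fold changes of -0.50, -0.74 and -0.85 for numbers 1 to 3. The authors' deposited table gave Pdp2 log2 fold changes of -0.92, -0.60 and -1.25. Each of these 6 values compares 1 library with 1 library and so holds no measure of the spread between mice.

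**Figure D1:**
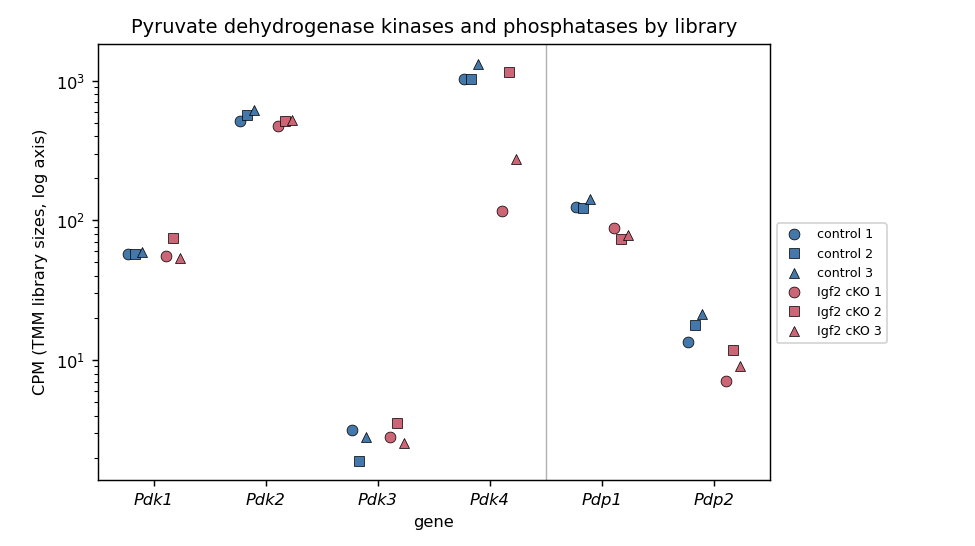
CPM of the 4 kinase and 2 phosphatase genes (log axis), with 1 point per library, blue for control and red for Igf2 cKO, and 1 symbol per replicate number. Pdp1 and Pdp2 lie lower in all 3 Igf2 cKO libraries, and Pdk4 lies at 116 and 274 CPM in Igf2 cKO replicates 1 and 3 and at 1161 CPM in replicate 2.

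Pdk4 (ENSMUSG00000019577, chromosome 6, 5483351 to 5496309, minus strand) had the widest spread of the 32 genes. It stood at 1030, 1031 and 1327 CPM in control replicates 1, 2 and 3, against 116, 1161 and 274 CPM in Igf2 cKO replicates 1, 2 and 3. The control mean was thus 9.75 times the value of Igf2 cKO replicate 1 and 4.12 times that of replicate 3, while replicate 2 lay within the control range. Over all 6 libraries the log2 value for Pdk4 was -1.13 ± 0.68 (SE, 95% interval -2.67 to 0.42, edgeR adjusted p = 0.637). Without Igf2 cKO replicate 2 it was -2.53 ± 0.34 (95% interval -3.32 to -1.74, edgeR adjusted p = 0.0214), where 0.448% of all genes were called. In that fit Pdk4 was the 1 member called. With the other libraries left out in turn the adjusted p lay between 0.737 and 0.844. With all 6 libraries, limma-voom gave Pdk4 a log2 value of -1.74 (adjusted p = 0.501). With the replicate number as a block, edgeR gave -1.80 (adjusted p = 0.368). The authors' deposited table gave Pdk4 log2 fold changes of -3.15, 0.17 and -2.27 for numbers 1 to 3. Each compares 1 library with 1 library and so holds no measure of the spread between mice.

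The SD of Pdk4 within a group, on log2 CPM and pooled over both groups, was 1.20, higher than that of 99.4% of all tested genes. Within the Igf2 cKO group alone it was 1.68, and within the controls 0.21. The slow fibre sum was also below the controls in Igf2 cKO replicates 1 and 3, but in replicate 2 it was above them, where Pdk4 lay within the control range. Among its genes, Myh7, the slow myosin heavy chain, stood at 311, 209.5 and 219.9 CPM in controls and Igf2 cKO replicates 1 to 3 had 43.7, 410.2 and 53.0 CPM. The part of fibre type in the Pdk4 values was not tested.

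The other kinases were steadier. Pdk2, a kinase found in most tissues, stood at 511, 567 and 622 CPM in control replicates 1, 2 and 3, against 474, 515 and 526 CPM in Igf2 cKO replicates 1, 2 and 3. The groups overlapped (log2 fold change -0.17 ± 0.12, SE, edgeR adjusted p = 0.728). For Pdk1, a hypoxia-induced kinase, the log2 fold change was 0.07 (adjusted p = 0.913). Pdk3 was thinly covered, with 34 to 58 counts in a library, and its log2 fold change was 0.17 (adjusted p = 0.895).

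Per length, Pdk4 was the most abundant kinase transcript in controls. It made up 63.3%, 61.0% and 64.8% of the summed FPKM of Pdk1 to Pdk4 in control replicates 1, 2 and 3. For the Igf2 cKO libraries the share was 17.3%, 65.5% and 31.0%. Pdk2 made up 33.7% to 37.3% in controls and 78.4%, 32.3% and 65.9% in the Igf2 cKO libraries. The leading kinase transcript was therefore Pdk4 in 4 libraries and Pdk2 in Igf2 cKO replicates 1 and 3. The summed FPKM of the 4 kinases was 460, 478 and 580 in controls and 189, 502 and 252 in Igf2 cKO replicates 1 to 3, and that of the 2 phosphatases was 29.8 to 34.96 and 18.3 to 20.6. The ratio of kinase to phosphatase FPKM, chosen after the values were seen, was 15.4 to 16.6 in controls and 9.18, 27.4 and 13.3 in Igf2 cKO replicates 1 to 3. Igf2 cKO libraries lay on both sides of the controls, and these are RNA levels that say nothing of phosphorylation.

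**Figure D2:**
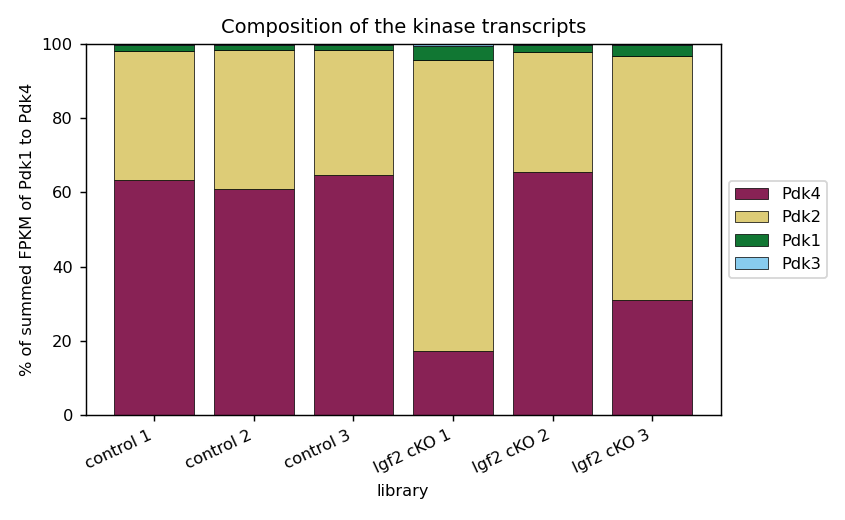
Share of Pdk1, Pdk2, Pdk3 and Pdk4 in their summed FPKM (percent, from 0 to 100) in each of the 6 libraries, stacked. Pdk4 takes 61.0% to 64.8% in the controls and 17.3%, 65.5% and 31.0% in Igf2 cKO replicates 1 to 3.

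Genes that PPAR factors induce together with Pdk4 in fasted muscle were examined beside it. Of 15 tested, 0 were called in either direction by edgeR and 4 had an unadjusted p under 0.05, all lower in Igf2 cKO muscle, against 4.82% of all genes that were lower at that p. The median log2 fold change was -0.12, with 12 below 0, as were 49.2% of all genes. Cpt1a, which starts the entry of long-chain fatty acids into mitochondria, was at 59.2, 53.2 and 43.7 CPM in control replicates 1, 2 and 3, against 23.5, 30.3 and 34.6 CPM in Igf2 cKO replicates 1, 2 and 3, without overlap (log2 fold change -0.82 ± 0.16, SE, edgeR adjusted p = 0.13, DESeq2 0.00168). Ucp3, a mitochondrial uncoupling protein of muscle, was at 155, 199 and 224 CPM in controls and 53.3, 139 and 111 CPM in Igf2 cKO replicates 1 to 3, also without overlap (-0.93 ± 0.31, edgeR adjusted p = 0.352). Acot2, a mitochondrial acyl-CoA thioesterase named after its values were seen, was at 26.2, 38.8 and 48.7 CPM in controls and 7.31, 33.1 and 11.2 CPM in Igf2 cKO replicates 1 to 3 (edgeR adjusted p = 0.49). For Ucp3 and Acot2, as for Pdk4, Igf2 cKO replicate 2 was the highest of its group. Angptl4, a secreted lipase inhibitor also made by fat cells, was at 9.48 to 12.3 CPM in controls and 2.40, 9.90 and 22.5 CPM in Igf2 cKO replicates 1 to 3, and its log2 value was 0.05 (edgeR adjusted p = 0.987).

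Most of the listed transcription regulators of Pdk4 had log2 fold changes above 0. Of 12 tested, edgeR and DESeq2 called 0, and 2 had an unadjusted edgeR p under 0.05. Above 0 lay 9 of the 12, as did 50.8% of all genes. In 4, all 3 Igf2 cKO libraries were above all controls, against 7.83% of all genes with that order. Klf15, which is induced by glucocorticoids, was at 37.6, 50.1 and 51.5 CPM in controls and 61.8, 78.9 and 63.0 CPM in Igf2 cKO replicates 1 to 3 (log2 fold change 0.55 ± 0.15, SE, edgeR adjusted p = 0.263). Foxo1 was at 38.8, 38.8 and 38.1 CPM in controls and 44.0, 52.2 and 44.4 CPM in Igf2 cKO replicates 1 to 3 (0.28 ± 0.10, edgeR adjusted p = 0.384). The other 2 were Nr3c1, the glucocorticoid receptor (0.20, adjusted p = 0.558), and Ppard (0.19, adjusted p = 0.614), named after their values were seen. Ppara, also named after its values were seen, was highest in Igf2 cKO replicate 2, at 40.7 CPM, against 6.06 to 15.5 CPM in the other libraries.

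The pyruvate carrier and the catalytic core of the complex had nearly the same mean in both groups. Mpc1 and Mpc2, the 2 carrier proteins, had log2 fold changes of 0.14 (95% interval -0.17 to 0.44) and -0.05 (-0.42 to 0.32). Pdha1 and Pdhb encode the decarboxylase that the kinases phosphorylate. Pdha1 was at 411, 446 and 492 CPM in control replicates 1, 2 and 3, against 373, 557 and 435 CPM in Igf2 cKO replicates 1, 2 and 3. Its log2 fold change was 0.02 (95% interval -0.36 to 0.39, edgeR adjusted p = 0.984). Pdhb was at 0.01 (-0.34 to 0.36), Dlat, the acetyltransferase core, at -0.12 (-0.55 to 0.31), Dld, the dehydrogenase shared with other 2-oxoacid complexes, at -0.01 (-0.34 to 0.31), and Pdhx, which anchors Dld to the core, at -0.07 (-0.39 to 0.24). The ratio of Pdha1 to Pdhb FPKM was 1.77 ± 0.134 in controls and 1.76 ± 0.121 in Igf2 cKO libraries (SD, n = 3 each), and that of Pdhx to Dlat was 0.435 ± 0.0192 and 0.451 ± 0.0331, differences smaller than the SDs.

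Among the 12 mitochondrial cycle enzymes, 0 were called by edgeR or DESeq2 or had an unadjusted edgeR p under 0.05, and log2 fold changes ran from -0.12 for Cs to 0.09 for Idh2, with a median of -0.004. Cs, citrate synthase, a common marker of mitochondrial content, was at 691, 761 and 898 CPM in control replicates 1, 2 and 3, against 592, 850 and 713 CPM in Igf2 cKO replicates 1, 2 and 3 (95% interval -0.51 to 0.26, adjusted p = 0.872). The NAD-dependent isocitrate dehydrogenase subunits Idh3a, Idh3b and Idh3g, the 2-oxoglutarate dehydrogenase genes Ogdh and Dlst, the succinyl-CoA ligase genes Sucla2, Suclg1 and Suclg2, fumarase (Fh1) and malate dehydrogenase (Mdh2) all lay between -0.09 and 0.04. Nop56, on the opposite strand and overlapping Idh3b, had 7.58% as many counts as Idh3b. Reads from the stretch that both genes share cannot be told apart, as no strand setting is stated. For these 10 enzymes the 95% intervals reached no further than -0.45 and 0.40. Sucla2, the ATP-forming ligase subunit, exceeded the GTP-forming Suclg2 by 7.85 to 10.2 times in FPKM in every library. Idh2, the NADP-dependent mitochondrial isocitrate dehydrogenase, was at 219, 305 and 290 CPM in controls and 171, 486 and 210 CPM in Igf2 cKO replicates 1 to 3, the second widest spread of the 32 genes (within-group SD 0.59 on log2 CPM).

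**Figure D3:**
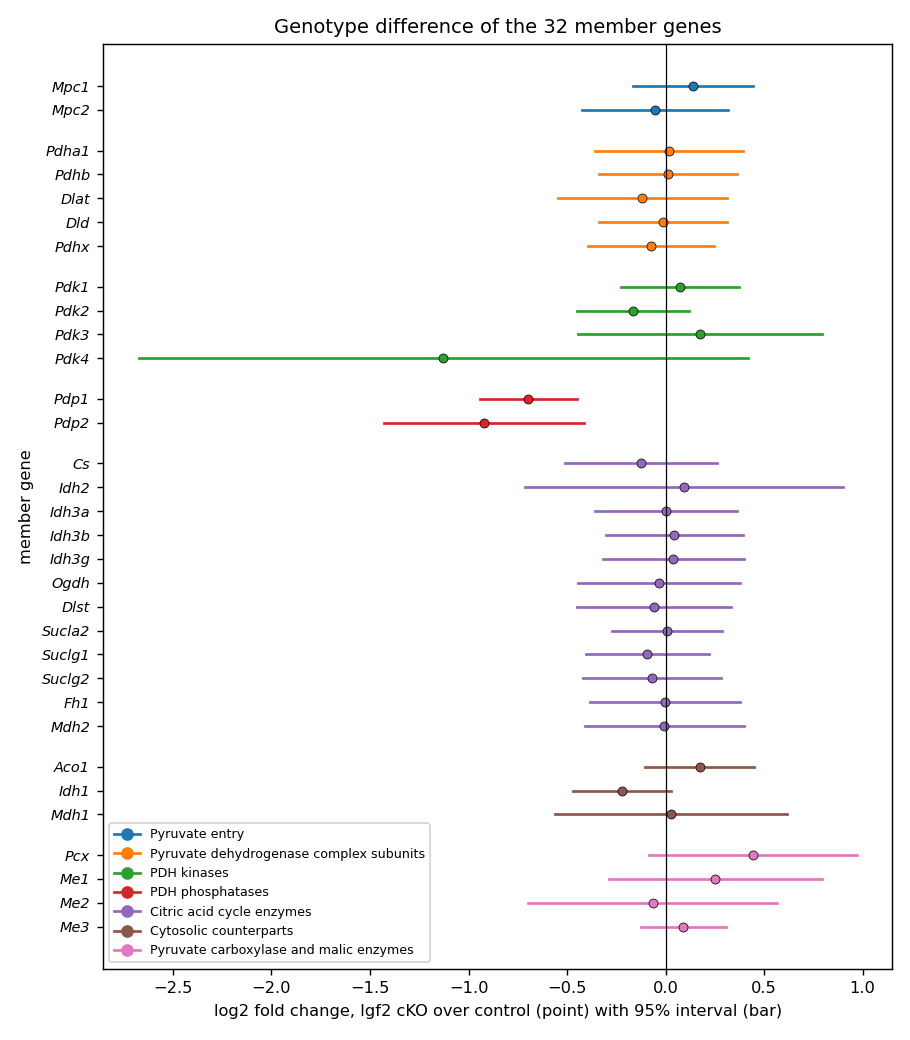
Log2 fold change of Igf2 cKO over control (point) with its 95% interval (bar) for the 32 genes, grouped and coloured by role. Pdp1 and Pdp2 are the 2 genes whose interval leaves out 0, and Pdk4 has the widest interval, from -2.67 to 0.42.

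Of the cytosolic counterparts, Mdh1, the cytosolic malate dehydrogenase of the malate-aspartate shuttle, was at 439, 584 and 602 CPM in controls and 391, 797 and 468 CPM in Igf2 cKO replicates 1 to 3 (log2 fold change 0.03, edgeR adjusted p = 0.984). Idh1, the cytosolic NADP-dependent isocitrate dehydrogenase, was at 48.7, 46.9 and 38.6 CPM in controls and 37.1, 38.2 and 39.9 CPM in Igf2 cKO replicates 1 to 3 (-0.22 ± 0.11, SE, adjusted p = 0.558). Control replicate 3 alone lay within the Igf2 cKO range. Aco1, the cytosolic aconitase that doubles as an iron sensor, was at 0.17 (adjusted p = 0.707).

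Pyruvate carboxylase and malic enzyme 1 were lowest of the Igf2 cKO group in replicate 2, where Pdk4 was highest. Pcx (chromosome 19, 4510472 to 4621752) makes oxaloacetate from pyruvate. It was at 78.5, 78.4 and 79.2 CPM in control replicates 1, 2 and 3, against 109, 67.4 and 145 CPM in Igf2 cKO replicates 1, 2 and 3. The controls were nearly identical, and Igf2 cKO replicates 1 and 3 lay above them and replicate 2 below. The log2 fold change was 0.44 ± 0.23 (SE, edgeR adjusted p = 0.591), and 0.69 ± 0.13 without Igf2 cKO replicate 2 (edgeR adjusted p = 0.0884). That was the top of its range with 1 library left out, which began at 0.165. Me1 (chromosome 9, 86581371 to 86695953), the cytosolic malic enzyme that makes NADPH, was at 168, 167 and 206 CPM in controls and 266, 133 and 245 CPM in Igf2 cKO replicates 1 to 3. Its log2 fold change was 0.25 ± 0.24 (edgeR adjusted p = 0.796), and 0.50 ± 0.13 without replicate 2 (edgeR adjusted p = 0.215). For Me1 too this was the top of the range with 1 library left out, which began at 0.07. Both genes are also expressed in fat cells. Ucp1, which defines brown fat cells, had 0 counts in all 6 libraries. The adipocyte sum was 1757 CPM in Igf2 cKO replicate 3, 763.4 CPM in replicate 1 and 553.4 to 954.9 CPM in controls. Fabp4 alone held 376.6 to 644.7 CPM of the sum in each library. Adipoq was at 39.3, 27.7 and 6.28 CPM in controls and 21.6, 7.74 and 78.0 CPM in Igf2 cKO replicates 1 to 3. Thrsp, another of these markers, had a different order, at 20.9 to 30.0 CPM in controls and 46.2, 38.8 and 70.1 CPM. Me1 was highest in Igf2 cKO replicate 1. The slow and oxidative fibre sum was 1464, 5515 and 1746 CPM in Igf2 cKO replicates 1 to 3 and 2668 to 2996 CPM in controls. The parts of fat cells and of fibre type in the Pcx and Me1 values were not tested. Lrfn4, on the opposite strand and overlapping Pcx, had 9.31% as many counts as Pcx. With no stated strand setting, reads from the stretch that both genes share cannot be told apart. The mitochondrial malic enzymes Me2 and Me3 had log2 fold changes of -0.07 (adjusted p = 0.967) and 0.09 (adjusted p = 0.826).

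Within each group the carrier, complex and cycle genes had a similar order of libraries. Over these 19 genes (2 carrier, 5 complex and 12 cycle genes), Igf2 cKO replicate 2 was the highest of the 6 libraries for 17, against 20.5% of all genes tested. Igf2 cKO replicate 1 was the lowest for 13, against 18.1% of all genes, and control replicate 1 was the lowest for the other 6. The median deviation of the 19 genes from the control mean, on log2(CPM + 0.5), was -0.18, 0.04 and 0.13 for the controls, in the order of their numbers, and -0.24, 0.25 and -0.12 for the Igf2 cKO libraries. Over all genes these medians lay between -0.001 and 0.01. The 2 Igf2 cKO libraries with negative deviations also had the lowest slow and oxidative fibre sums, and Igf2 cKO replicate 2 had the highest of both. Control replicate 1, also negative, had a fibre sum of 2668 CPM beside 2996 and 2881 CPM in the other controls. The part of fibre type in these values was not tested. Pdp1 did not share this order: it was lowest in Igf2 cKO replicate 2. Pdp2 did share the order within each group. It stood at 13.5, 17.7 and 21.5 CPM in controls and 7.08, 11.7 and 9.05 CPM in Igf2 cKO replicates 1 to 3.

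**Figure D4:**
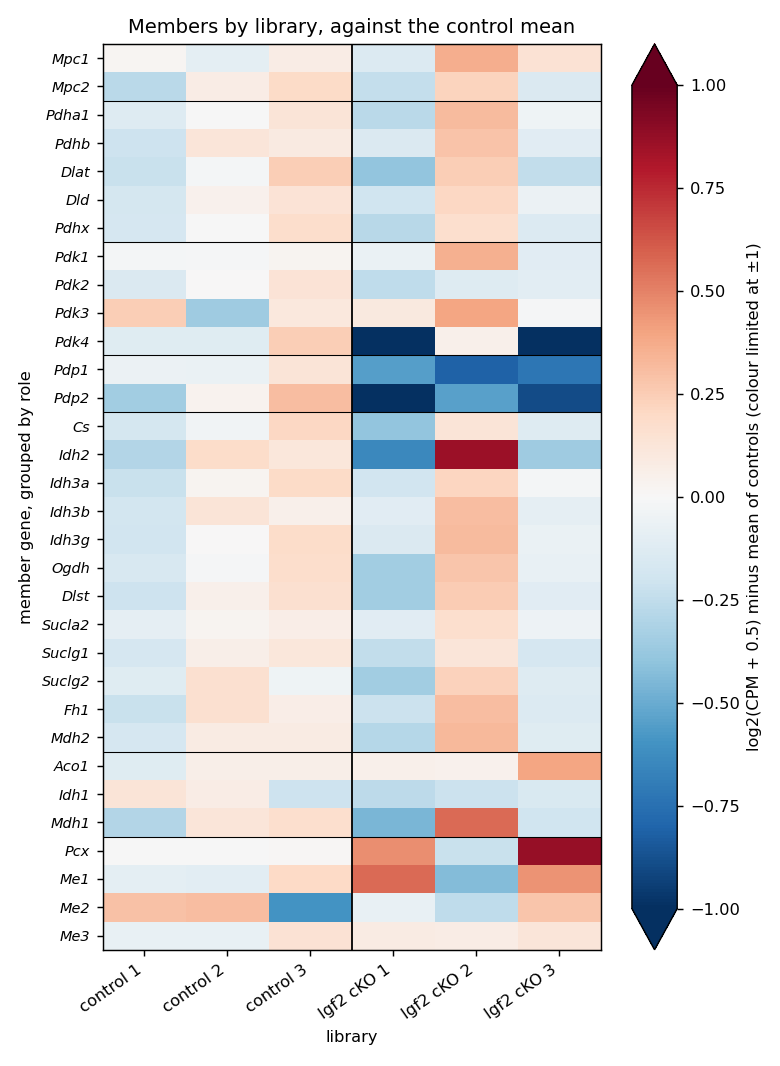
Log2(CPM + 0.5) of each of the 32 genes in each library minus the mean of the 3 controls, red above and blue below, with colour limited at 1 in either direction and lines between roles. The column of Igf2 cKO replicate 2 is red and that of replicate 1 blue across the carrier, complex and cycle genes. Pdp1 and Pdp2 are blue in all 3 Igf2 cKO libraries, Pdp2 least so in replicate 2.

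**Figure D5:**
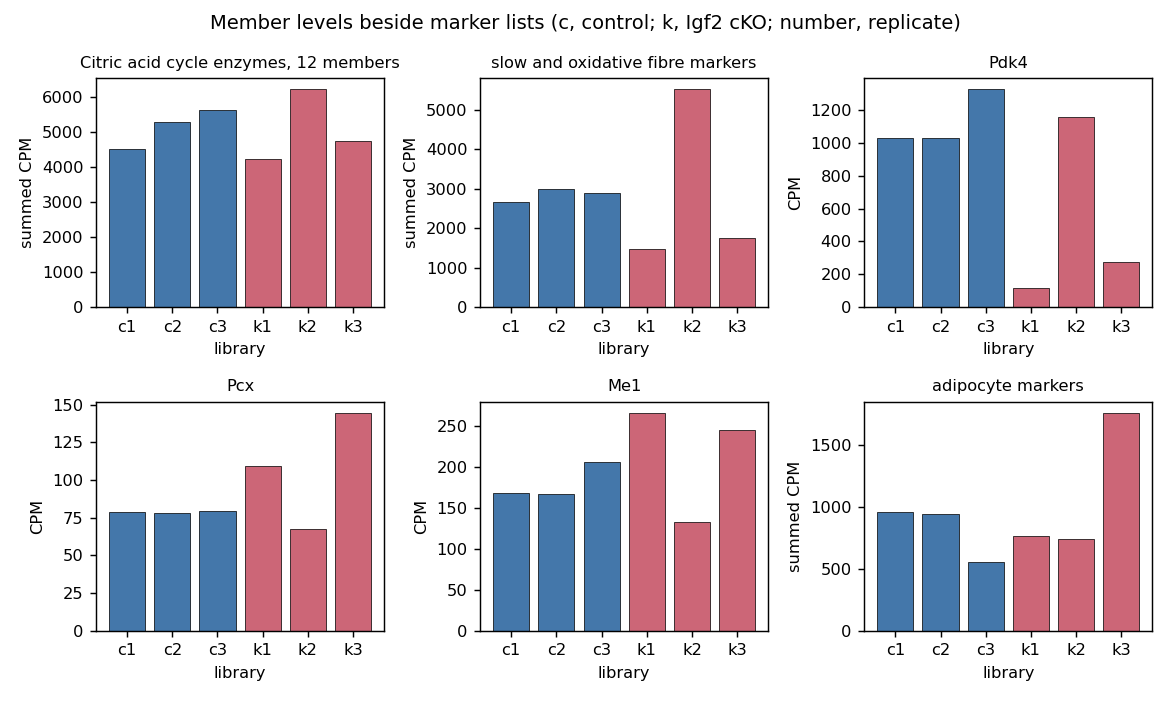
CPM of Pdk4, Pcx and Me1 and summed CPM of the 12 mitochondrial cycle enzymes, 9 slow and oxidative fibre markers and 10 adipocyte markers in each library (bars from 0; c1 to c3 are control replicates 1 to 3 and k1 to k3 are Igf2 cKO replicates 1 to 3). Pdk4, the cycle enzymes and the fibre markers are highest within the Igf2 cKO group in replicate 2, and Pcx and Me1 are lowest there.

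Levels of different genes were compared in FPKM. In controls Pdk4 came first of the 32, at 320 ± 48.7 FPKM (SD, n = 3), with no overlap with the next gene, Mdh1, at 210 ± 34.8. Next came Mdh2 (199 ± 19.4), Pdk2 (178 ± 17.5), Ogdh (152 ± 18.2), Cs (135 ± 18.2) and Pdha1 (120 ± 10.9). From Mdh1 to Pdha1 the ranges of neighbouring genes over the 3 controls overlapped, although the order from Mdh2 to Pdha1 was the same in each control. Mdh1 lay below Mdh2 in control replicate 1 only. At the other end were Me3 (4.12 ± 0.375), Pdp2 (3.06 ± 0.704), Me2 (2.78 ± 0.942) and Pdk3 (1.02 ± 0.249). In Igf2 cKO libraries Pdk4 stood at 32.7, 329 and 78.2 FPKM in replicates 1 to 3, so that Mdh2 at 163 and 184 FPKM exceeded it in replicates 1 and 3.

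Other genes of the pathway were examined in 4 lists, in each of which edgeR and DESeq2 called 0. In the list of remaining cycle and complex genes, 7 of 8 were tested and 0 had an unadjusted p under 0.05. They included the 4 succinate dehydrogenase subunits, of which Sdhc was at 0.06 (adjusted p = 0.942). Of 7 genes that supply lipoate and thiamine cofactors to the 2-oxoacid dehydrogenases, 0 had an unadjusted p under 0.05, with Lipt1, a lipoyltransferase, at -0.40 (adjusted p = 0.528). Among 15 carrier and transaminase genes 1 had an unadjusted p under 0.05. This was Pck1, a gluconeogenic enzyme abundant in fat cells, at 7.74, 7.16 and 1.57 CPM in controls and 15.2, 10.6 and 64.4 CPM in Igf2 cKO replicates 1 to 3 (log2 fold change 2.43 ± 0.74, SE, edgeR adjusted p = 0.308). Gpt2, mitochondrial alanine transaminase, which makes alanine from pyruvate and was chosen with its values in view, was at 296, 293 and 343 CPM in controls and 558, 283 and 475 CPM in Igf2 cKO replicates 1 to 3 (0.50 ± 0.23, edgeR adjusted p = 0.524), with Igf2 cKO replicate 2 below all controls. Of 4 lactate genes 0 had an unadjusted p under 0.05, with Ldha at -0.09 (adjusted p = 0.91) and the lactate exporter Slc16a3 at 0.13 (adjusted p = 0.901).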

How the data were processed

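Total RNA was isolated with Trizol, sequenced on an Illumina NovaSeq by a service company and analysed with OmicStudio tools, per the labels' protocols. Aligner, counting tool, strand setting and annotation were not given in the sources used here. The authors deposited 1 table with a raw count and a length-scaled FPKM for every gene in each library, per its header. The authors' own log2 fold change, p-value and adjusted p-value for 3 comparisons of single libraries stand in the same deposited table. Another 6 columns of per-sample values were not used. Of the table's genes, 98.3% of those found in GENCODE M21 (GRCm38) had the same coordinates there, and 31 of the 32 members did. Promoters are from RefSeq on GRCm38.p6.

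Counts were tested with edgeR 4.0.16 in R 4.3.3 (TMM, filterByExpr, quasi-likelihood F test, 14867 genes tested). The fit was also run on counts simulated from its own means and trend of spread, with results not reported here. CPM uses TMM library sizes, SE is derived from the F statistic, and log2 CPM has a prior count of 2. Alternatives were other size factors and filters, DESeq2 1.42.0, limma-voom (limma 3.58.1), a replicate block, other thresholds and leaving out each library. Every member was named. From each other pathway list the called genes or the 2 with the smallest p were named, with Angptl4, Ucp3 and Igf2, and other names are said to be chosen after their values were seen. Some genes that this rule names are not reported here. The members and lists were chosen with earlier results of these data known.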

Additional observations from a re-analysis of the deposited data

How the results depend on the processing

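Over all genes, edgeR called 37. The count was 282 with no filter on low counts, 220 with DESeq2, 62 at an adjusted p under 0.1 and 235 by the series' own rule (unadjusted p under 0.05 and absolute log2 fold change over 1), and it ran from 8 (without control replicate 1) to 68 (without Igf2 cKO replicate 2) with 1 library left out. Without control replicates 2 and 3 it was 15 and 13, and without Igf2 cKO replicate 3 it was 17. Of the 32 members 0 were called, and the count was 2 with no filter and 2 with DESeq2 (Pdp1 and Pdp2), 1 at an adjusted p under 0.1 (Pdp1), and 0 to 1 with a library left out, the 1 being Pdk4 without Igf2 cKO replicate 2. Members with an unadjusted p under 0.05 numbered 2, 4 with no filter, 3 with limma-voom, and 2 to 6 with a library left out, 6 without Igf2 cKO replicate 2. Outside the 32, Pck1 (0.000725), Cpt1a (0.000725), Ucp3 (0.0107) and Klf15 (0.0365) passed an edgeR adjusted p of 0.05 with no filter. The causes of these differences were not tested.

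Fits with the replicate number as a block called 35 genes, 0 of them members, and 3 members then had an unadjusted p under 0.05. The labels do not say that numbers pair the mice, and same-numbered libraries deviated from their group means with correlations of 0.163, 0.058 and -0.043, so they were not taken as pairs. For Igf2 cKO replicate 2 the highest of these correlations was with control replicate 3, at 0.122. They compare deviations from group means and do not measure how alike 2 libraries are.

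Of 46 named genes, 22 kept the sign of their log2 fold change in every fit run, among them Pdp1, Pdp2, Pdk4, Pcx and Me1. With all libraries kept, the sign turned for Pdhb (-0.002), Idh3a (-0.015) and Sucla2 (-0.011) with upper-quartile factors, for Idh3a (-0.002) with no filter and (-0.0) with limma-voom, and for Idh2, Mdh1 and Angptl4 with limma-voom (-0.044, -0.025 and -0.495) and the replicate block (-0.051, -0.028 and -0.319). With 1 library left out it turned for 24 genes, whose log2 fold changes then ran as follows: Mpc2 -0.203 to 0.048, Pdha1 -0.154 to 0.143, Pdhb -0.139 to 0.093, Dlat -0.331 to 0.016, Dld -0.135 to 0.075, Pdhx -0.211 to 0.021, Pdk1 -0.093 to 0.157, Pdk3 -0.025 to 0.329. For cycle enzymes and Me2 the ranges were Idh2 -0.509 to 0.36, Idh3a -0.114 to 0.104, Idh3b -0.106 to 0.119, Idh3g -0.116 to 0.139, Ogdh -0.211 to 0.104, Dlst -0.234 to 0.072, Sucla2 -0.084 to 0.062, Suclg2 -0.241 to 0.057, Fh1 -0.182 to 0.098, Mdh1 -0.334 to 0.223, Mdh2 -0.204 to 0.116, Me2 -0.315 to 0.076. For genes outside the 32 they were Sdhc -0.095 to 0.143, Ldha -0.15 to 0.012, Slc16a3 -0.012 to 0.35, Angptl4 -0.879 to 0.533. The cause was not tested. With 3 libraries a group, p-values set each group difference against a spread estimated from these few mice, and counts of 34 to 58 limit Pdk3.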
